A study of Mus musculus with 18 samples.

Results

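The Hox clusters and their noncoding transcripts were described in cell lines grown from mouse malignant peripheral nerve sheath tumors (MPNSTs), sarcomas of the nerve sheath. The members were every gene of the count table whose symbol starts with Hoxa, Hoxb, Hoxc or Hoxd and a digit, plus *Hotair*, *Hottip* and *Hotairm1*. This gave 46 of the 35275 genes in the table, 39 of them coding (11 in cluster a, 10 in b, 9 in c and 9 in d) and 7 noncoding.

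Hox genes encode homeodomain transcription factors that give embryonic cells their position along the body axis and along the limbs. Within each cluster the genes are numbered by paralog group, and genes of low number are switched on earlier and nearer the head than genes of high number, which pattern the trunk, the tail and the distal limb. Cultured fibroblasts and other mesenchymal cells are known to keep much of the Hox pattern of the site they came from, and antisense and intergenic transcripts such as *Hotair*, *Hottip* and *Hotairm1* lie between or beside the coding genes.

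The lines came from tumors that formed in wild-type mice of matched genetic background after an adenovirus carrying guide RNAs and Cas9, under a promoter not restricted to 1 cell type, was injected into the sciatic nerve. One group, the *Nf1*/*p53* dKO, was targeted in *Nf1* and *Trp53*, the gene for p53, and the other, the *Nf1*/*Cdkn2a* dKO, in *Nf1* and *Cdkn2a*, which encodes p16 and p19, so both were targeted in *Nf1*. Each genotype had 3 lines, each line stands for 1 tumor, and RNA from 3 cultures of each line was sequenced, giving 18 libraries of 19560535 to 28312207 counts. The cells were grown without treatment in serum-containing medium and were described by the submitters as mesenchymal. The Cas9 edit can differ between tumors.

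The targeted genes were still transcribed in every line. *Trp53* was at 58.6 to 94.1 CPM (counts per 1000000 of a library, scaled by TMM) in *Nf1*/*p53* dKO lines and at 185 to 247 in *Nf1*/*Cdkn2a* dKO lines, while *Nf1* (12.7 to 69.9) and *Cdkn2a* (42.9 to 391) overlapped between the genotypes. The 10 mesenchymal markers summed to 9055 to 23870 CPM in the *Nf1*/*p53* dKO and 12070 to 19350 in the *Nf1*/*Cdkn2a* dKO. Of these, 5 had a fold change above 0 and 5 below, and 0 were called by edgeR. *Vim* (4725 to 6116 CPM against 7211 to 10200), *Prrx1* (183 to 343 against 488 to 1117) and *Twist1* (50.6 to 89.0 against 93.2 to 137) were higher in every *Nf1*/*Cdkn2a* dKO line. That held for 14.8% of all genes tested, and 0 of the 10 were lower in every line. DESeq2 on sums per line called 2 of the 10 higher, where it called 6.2% of all genes higher. The 10 Schwann cell markers summed to 15.6 to 96.4 and 7.26 to 66.6 CPM, and 0 of the 8 tested were called by edgeR. They did not go together: *Sox10* was below 0.1 CPM in all 6 lines, while *Gap43* was at 4.65 to 59.6 CPM and *Egr2* at 1.27 to 19.4. *Ngfr* reached 64.3 CPM in *Nf1*/*p53* dKO line 2. The 10 muscle markers summed to 119 to 582 CPM in the *Nf1*/*p53* dKO and 8.75 to 32.9 in the *Nf1*/*Cdkn2a* dKO. Of the 7 tested, 2 (*Myf5* and *Cdh15*) were lower in the *Nf1*/*Cdkn2a* dKO at an adjusted p under 0.05 (0 to 2 with any 1 line left out), where 1.16% of all genes tested were. *Myf5*, *Myod1* and *Myog* had no more than 1 count in any *Nf1*/*Cdkn2a* dKO line. In *Nf1*/*p53* dKO lines *Myf5* was at 28.0, 24.2 and 27.65 CPM, *Myod1* at 1.75, 0.27 and 203.5, and *Myog* at 0.142, 0.0565 and 1.065. *Chrna1* was at 27.8, 78.4 and 161 CPM against 27.2, 7.24 and 12.1 in *Nf1*/*Cdkn2a* dKO lines. *Acta1*, at 4.86, 28.5 and 4.44 CPM against 4.71, 0.577 and 3.61, overlapped between the genotypes. The leukocyte (7 in the table, 3.90 to 7.72 and 6.69 to 8.28 CPM) and endothelial markers (8, 1.62 to 2.57 and 1.27 to 2.32 CPM) were low in both genotypes. Of the 4 endothelial markers tested, 1 had a fold change above 0 (*Cdh5*, log2 fold change 1.61, adjusted p = 0.221, edgeR) and 3 below. *Tek* alone was called, lower in the *Nf1*/*Cdkn2a* dKO (adjusted p = 0.0465, edgeR), where 1.16% of all genes were called lower. With any 1 line left out it was not called. The part of these differences in the Hox results was not tested. In bulk RNA, fewer cells with a transcript and less of it per cell cannot be told apart.

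All 6 lines expressed a large set of Hox genes, but not the same set. In the *Nf1*/*p53* dKO, 30, 25 and 20 of the 46 members reached 1 CPM in lines 1, 2 and 3, and in the *Nf1*/*Cdkn2a* dKO 17, 18 and 19 did. The summed level of the 46 members was 358, 202 and 316 CPM in *Nf1*/*p53* dKO lines against 236, 203 and 251 CPM in *Nf1*/*Cdkn2a* dKO lines, so the totals overlapped. The reads lay at different places along the clusters. Genes of paralog groups 9 to 13, the posterior groups, made up 48.6, 60.6 and 77.5% of the summed CPM of the coding Hox genes in *Nf1*/*p53* dKO lines and 23.3, 10.1 and 15.8% in *Nf1*/*Cdkn2a* dKO lines. Groups 4 to 8 made up 47.8, 37.0 and 20.9% against 74.7, 86.7 and 81.4%, and the anterior groups 1 to 3 took 1.60 to 3.58% in every line. These shares are sums over genes of different length, and no test was run on them.

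**Figure D1:**
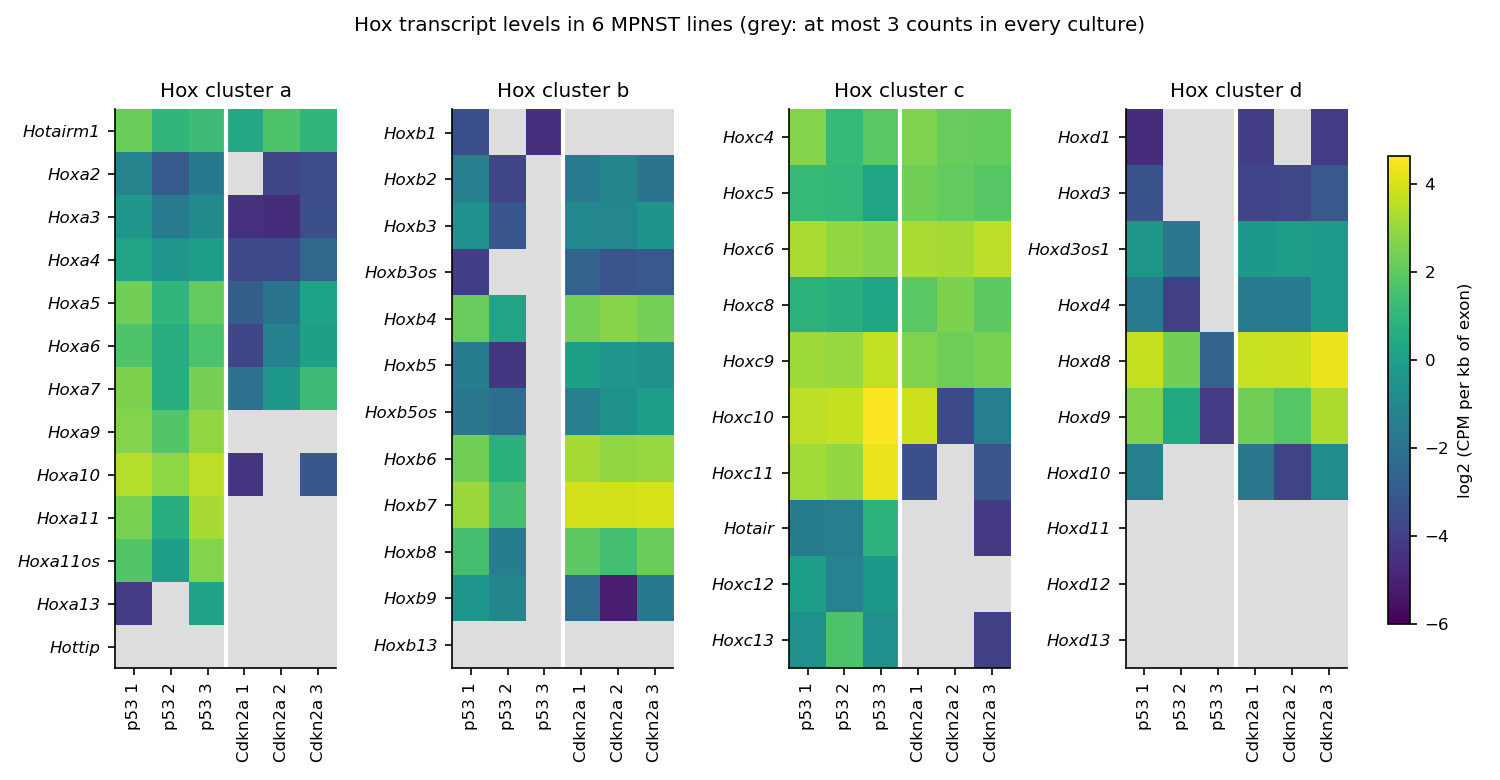
Level of 45 Hox members (rows, in the order of the cluster from low to high paralog group) in the 6 lines (columns, *Nf1*/*p53* dKO left and *Nf1*/*Cdkn2a* dKO right of the white line), as log2 of CPM per kb of exon over 3 cultures. Grey cells had no more than 3 counts in each culture. The *Nf1*/*Cdkn2a* dKO lines are grey or dark from *Hoxa9* and *Hoxc11* on, and *Nf1*/*p53* dKO line 3 is grey over nearly all of clusters b and d.

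Of the 46 members, 38 passed the filter on low counts and entered the genotype comparison, which summed the 3 cultures of a line and compared 3 lines with 3 (edgeR's quasi-likelihood test, Benjamini-Hochberg over all 15207 genes tested). At an adjusted p under 0.05, 8 members were lower in the *Nf1*/*Cdkn2a* dKO and 0 were higher, where 1.8% of all genes tested were called (1.16% lower, 0.638% higher). Of the 38, 14 members were lower and 10 higher in every *Nf1*/*Cdkn2a* dKO line than in every *Nf1*/*p53* dKO line, where 31.4% of all genes tested had no overlap between the genotypes (16.6% lower, 14.8% higher). An exact permutation of 3 lines against 3 cannot give a p below 0.1, so a single gene could be called by the fit across all genes alone. At an unadjusted p under 0.05 there were 14 members lower and 2 higher, where 22.4% of all genes passed in either direction, and DESeq2 on the same 6 sums called 13 lower and 2 higher, where it called 14.3% of all genes (8.14% lower, 6.2% higher). The 8 calls depended on having all 6 lines. Without *Nf1*/*p53* dKO line 1, 2 or 3, 2, 1 and 2 members were called (of 172, 27 and 107 genes in all), and without *Nf1*/*Cdkn2a* dKO line 1, 2 or 3, 0, 0 and 2 were called (of 0, 2 and 23 genes in all), with 17 and 15 members at an unadjusted p under 0.05 in the fits that called 0. *Hoxa9* passed without any 1 of the *Nf1*/*p53* dKO lines and without *Nf1*/*Cdkn2a* dKO line 3, *Hoxa10* without *Nf1*/*p53* dKO line 1 or 3 and without *Nf1*/*Cdkn2a* dKO line 3, and no other member passed without a line.

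**Figure D2:**
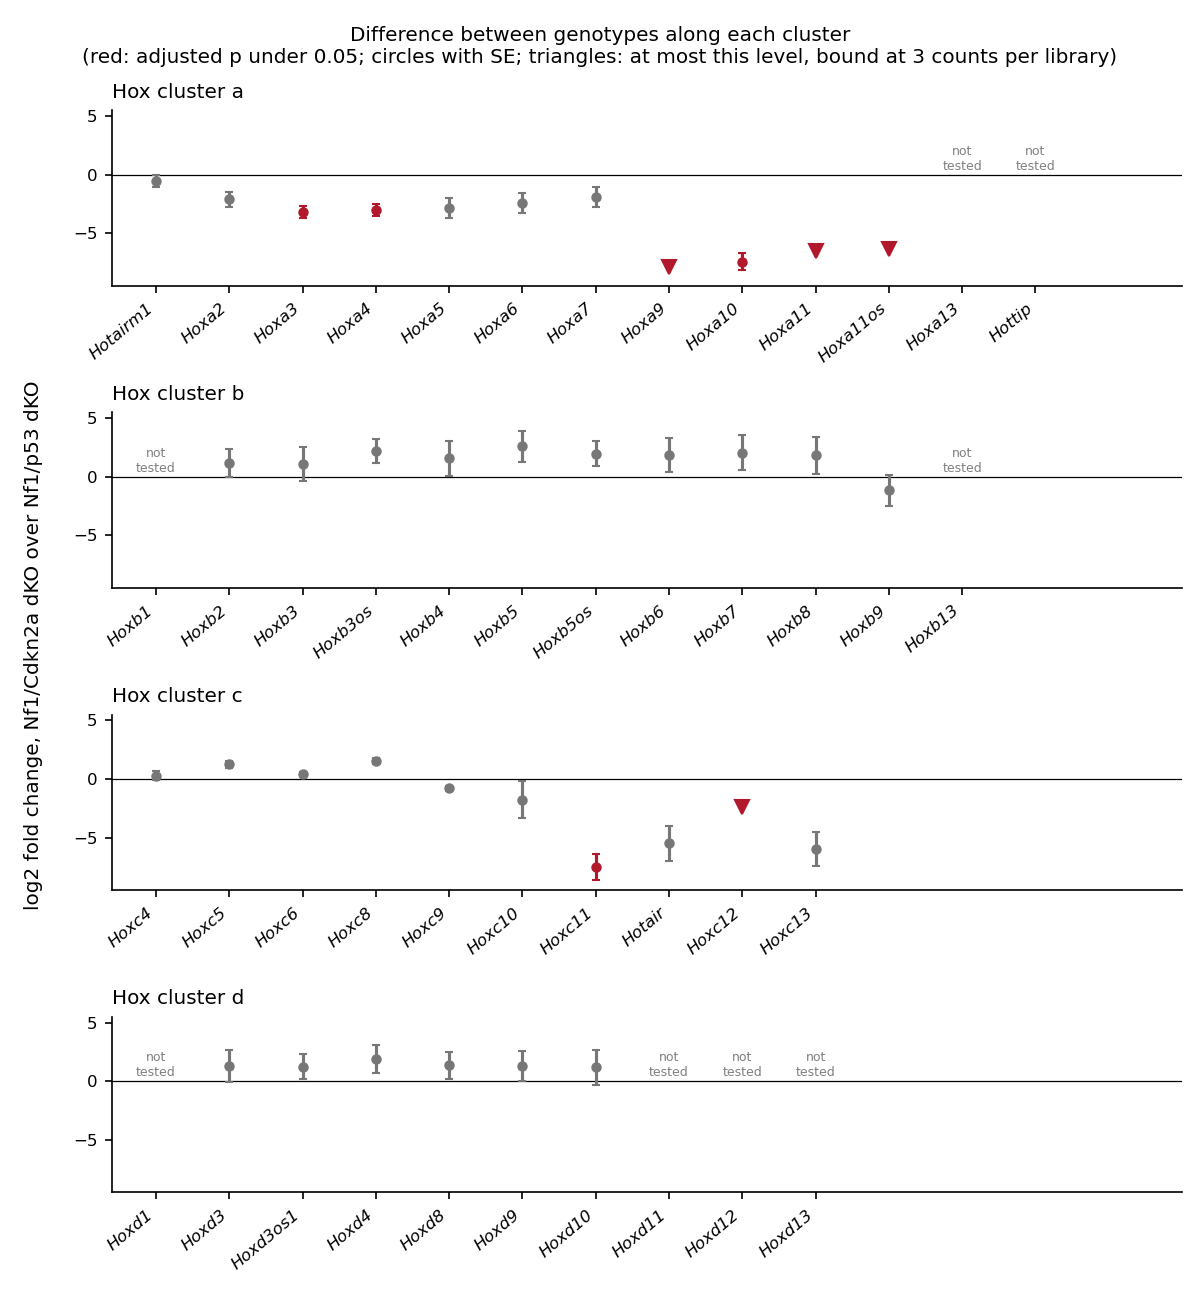
Log2 fold change of 37 tested members (*Nf1*/*Cdkn2a* dKO over *Nf1*/*p53* dKO, 3 lines each) along the 4 clusters, with the standard error from edgeR as error bar and red for an adjusted p under 0.05. Triangles are upper limits for genes with at most 3 counts in every *Nf1*/*Cdkn2a* dKO library, so the level there lay at or below the triangle. The 8 red members lie in clusters a and c, and all 6 tested members of cluster d and 9 of 10 of cluster b have a fitted fold change above 0.

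Cluster a was, of the 4 clusters, the one whose summed level separated the genotypes most widely. Its 14 members, with the coding genes on chromosome 6 from 52155590 to 52260880 (GRCm38), summed to 139, 65.9 and 159.9 CPM in *Nf1*/*p53* dKO lines and to 3.54, 8.88 and 15.3 CPM in *Nf1*/*Cdkn2a* dKO lines. All 12 tested members had a fitted fold change below 0, where 7875 of all 15207 genes tested had. Of the 12, 9 were lower in every *Nf1*/*Cdkn2a* dKO line than in every *Nf1*/*p53* dKO line (16.6% of all genes). The test called 6 of them lower (1.16% of all genes). These counts take *Hoxa11* and *Hoxa11os*, which share exon bases, as 2 members. The difference was not even along the cluster and was widest from *Hoxa9* on.

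*Hoxa9*, which patterns the trunk and proximal limb and is also a factor of blood progenitors, was at 35.7, 19.2 and 41.3 CPM in *Nf1*/*p53* dKO lines and at 0, 0 and 0.0625 CPM in *Nf1*/*Cdkn2a* dKO lines. The last value rests on 4 counts, and no *Nf1*/*Cdkn2a* dKO culture held more than 3. Against a floor of 3 counts per library (0.139 CPM), *Hoxa9* was at least 231-fold lower in the *Nf1*/*Cdkn2a* dKO (adjusted p = 0.0189, edgeR). *Hoxa10*, its neighbor, needed for the proximal limb and the reproductive tract, was at 36.3, 23.1 and 39.3 CPM against 0.160, 0.0433 and 0.375 CPM. The genotypes were separated at every culture, from 21.9 CPM upward in the *Nf1*/*p53* dKO and up to 0.833 CPM in the *Nf1*/*Cdkn2a* dKO. Its log2 fold change was −7.41 ± 0.76 (SE, n = 3 lines each, adjusted p = 0.0198, edgeR).

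*Hoxa11*, which acts in the middle segment of the limb and in the kidney and uterus, had 12.8, 3.69 and 21.7 CPM in *Nf1*/*p53* dKO lines and no count in any of the 9 *Nf1*/*Cdkn2a* dKO cultures. It was at least 91.6-fold lower in the *Nf1*/*Cdkn2a* dKO (adjusted p = 0.0406, edgeR). *Hoxa11os*, transcribed from the opposite strand, followed it at 10.7, 2.91 and 19.8 CPM against 0 in all 9 cultures (at least 80.0-fold lower, adjusted p = 0.0457, edgeR). The pair shares 800 bp of exon, 34.98% of *Hoxa11* and 26.0% of *Hoxa11os*, and since strand use in counting is not known, their counts are uncertain and are not independent. *Hoxa13*, the last gene of the cluster, which patterns the hand and foot and the end of the gut, was read in *Nf1*/*p53* dKO line 3 at 2.74 CPM (49, 77 and 72 counts in its cultures). Line 1 had 0.142 CPM and line 2 and all *Nf1*/*Cdkn2a* dKO cultures 0, and the gene did not enter the genotype comparison. Between the *Nf1*/*p53* dKO lines it differed beyond the spread of cultures (adjusted p = 1.16e-09, edgeR). *Hottip*, the noncoding transcript beyond *Hoxa13*, had 0 counts in all 18 libraries, which allows up to 3 counts in a library.

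The RefSeq promoter windows at this step in the cluster are shown so that the sequence at *Hoxa7*, which every culture read, can be set beside those at *Hoxa9*, *Hoxa10* and *Hoxa11*, the called coding genes after it. Each window runs from 250 bases before to 50 bases after a RefSeq start on GRCm38.p6, 5′ to 3′, and capitals mark matches, on either strand, to 3 short motifs. *Hoxa10* has 2 such starts. The windows of *Hoxa7* and *Hoxa9* and the first of *Hoxa10* lie inside the bounds that GENCODE gives these genes, and the second of *Hoxa10* spans its GENCODE 5′ end.

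*Hoxa7*, chr6:52218524-52218823, minus strand: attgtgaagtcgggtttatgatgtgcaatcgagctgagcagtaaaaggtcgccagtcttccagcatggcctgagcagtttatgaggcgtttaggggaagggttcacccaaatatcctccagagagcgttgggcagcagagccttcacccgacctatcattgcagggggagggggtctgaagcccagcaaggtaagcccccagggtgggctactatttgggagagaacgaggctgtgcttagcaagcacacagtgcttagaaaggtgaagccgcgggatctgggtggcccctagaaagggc

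*Hoxa9*, chr6:52227321-52227620, minus strand: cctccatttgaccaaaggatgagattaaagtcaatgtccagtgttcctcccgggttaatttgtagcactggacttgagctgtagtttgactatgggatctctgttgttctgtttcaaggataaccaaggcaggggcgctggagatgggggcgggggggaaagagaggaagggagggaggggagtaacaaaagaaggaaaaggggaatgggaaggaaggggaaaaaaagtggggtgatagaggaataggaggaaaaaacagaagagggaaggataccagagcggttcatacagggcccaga

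*Hoxa10*, first start, chr6:52234890-52235189, minus strand: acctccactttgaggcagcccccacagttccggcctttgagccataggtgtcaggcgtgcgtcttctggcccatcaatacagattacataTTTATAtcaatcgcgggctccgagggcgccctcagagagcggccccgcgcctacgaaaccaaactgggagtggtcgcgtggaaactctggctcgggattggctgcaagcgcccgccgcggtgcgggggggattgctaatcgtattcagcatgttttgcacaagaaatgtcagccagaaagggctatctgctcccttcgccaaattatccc

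*Hoxa10*, second start, chr6:52240805-52241104, minus strand: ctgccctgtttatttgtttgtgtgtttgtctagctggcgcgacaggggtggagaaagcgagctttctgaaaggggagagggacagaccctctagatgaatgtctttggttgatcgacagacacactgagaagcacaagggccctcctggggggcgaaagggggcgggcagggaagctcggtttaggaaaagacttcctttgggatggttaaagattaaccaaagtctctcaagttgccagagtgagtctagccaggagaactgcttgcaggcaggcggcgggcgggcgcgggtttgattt

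*Hoxa11*, chr6:52245761-52246060, minus strand: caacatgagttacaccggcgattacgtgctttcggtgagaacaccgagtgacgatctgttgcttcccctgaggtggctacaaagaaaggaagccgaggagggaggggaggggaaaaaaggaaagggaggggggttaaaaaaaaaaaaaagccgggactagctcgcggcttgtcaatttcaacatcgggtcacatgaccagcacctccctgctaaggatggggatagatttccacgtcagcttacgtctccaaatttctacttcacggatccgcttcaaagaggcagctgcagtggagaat

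The motifs searched were TATAAA (the TATA box core), TTTATNG (a form of the Cdx site) and TGATNNAT (a form of the site that Hox and Pbx proteins bind together), and the reverse complement of TATAAA can overlap TTTATNG. They occur in 13.6%, 10.9% and 8.85% of the 32851 promoter windows of the table, and in 5, 3 and 4 of the 28 windows that matched a member (26 of the 46 members matched, 2 of them with 2 starts). Among these 5 windows of cluster a, the first of *Hoxa10* held a match and the other 4 held none. CpG pairs numbered 9 in the *Hoxa7* window, 4 in *Hoxa9*, 21 and 12 in the first and second of *Hoxa10* and 15 in *Hoxa11*, where the median was 14.5 over the Hox windows and 7 over all windows. These counts are descriptions of letters and say nothing of binding or methylation.

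Toward the head end of cluster a the fold difference was smaller. *Hoxa3*, which is needed for the pharyngeal glands, was at 4.52, 2.04 and 3.15 CPM in *Nf1*/*p53* dKO lines and at 0.273, 0.245 and 0.563 CPM in *Nf1*/*Cdkn2a* dKO lines. It was lower by a log2 fold change of −3.16 ± 0.53 (adjusted p = 0.0465, edgeR). *Hoxa4* was at 1.84, 1.20 and 1.56 CPM against 0.128, 0.130 and 0.297 CPM, a log2 fold change of −3.04 ± 0.51 (adjusted p = 0.0465, edgeR). Several antisense transcripts each share 4.86 to 8.36% of the exon bases of *Hoxa3*, and 1 shares 16.0% of those of *Hoxa4*, so these low counts are uncertain.

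*Hoxa5*, which acts in lung and rib development, did not pass the test, at 9.59, 3.76 and 7.98 CPM against 0.257, 0.505 and 2.14 CPM (log2 fold change −2.88 ± 0.85, adjusted p = 0.120, edgeR). *Hoxa2*, at 0.747, 0.226 and 0.553 CPM against 0.0641, 0.130 and 0.156, was at a log2 fold change of −2.11 ± 0.63 (adjusted p = 0.119, edgeR). *Hoxa6*, at 2.86, 1.37 and 2.71 CPM against 0.0641, 0.346 and 0.891, had one of −2.41 ± 0.87 (adjusted p = 0.175, edgeR). These 3 genes did not overlap between the genotypes. *Hoxa7*, the gene before *Hoxa9*, did overlap, at 16.5, 4.76 and 15.8 CPM against 0.722, 2.29 and 7.10 CPM (adjusted p = 0.264, edgeR). An antisense transcript, *Hoxaas3*, shares 20.4% of the exon bases of *Hoxa7*, so the *Hoxa7* counts are uncertain too. Per kb of exon, the level of *Hoxa9* was 1.11, 2.08 and 1.35 times that of *Hoxa7* in *Nf1*/*p53* dKO lines, and 0, 0 and 0.00454 times in *Nf1*/*Cdkn2a* dKO lines. *Hotairm1*, an antisense noncoding transcript at the anterior end, was at 4.93, 2.08 and 2.54 CPM against 1.36, 3.32 and 2.03 CPM and overlapped (adjusted p = 0.583, edgeR).

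The *Nf1*/*Cdkn2a* dKO lines also differed among themselves in cluster a. All 5 members tested between them, with *Hotairm1*, *Hoxa5*, *Hoxa6* and *Hoxa7* among them, were called, where 54.2% of 13387 genes were called between these lines, and line 3 had the highest level of *Hoxa5*, *Hoxa6* and *Hoxa7* while line 1 had the lowest. Between the *Nf1*/*p53* dKO lines 12 of 13 members of the cluster were called, where 79.7% of 14199 genes were, and line 2 had the lowest level of every one from *Hoxa2* to *Hoxa11os*. These p-values measure the spread between cultures of a line only.

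Cluster c differed between the genotypes at its posterior end, while its middle genes were read in all lines. Its 10 members, from *Hoxc13* to *Hoxc4* on chromosome 15 from 102921103 to 103036852, summed to 117, 104 and 155 CPM in *Nf1*/*p53* dKO lines and to 107, 75.4 and 77.8 CPM in *Nf1*/*Cdkn2a* dKO lines. *Hoxc11*, which patterns the hindlimb and the lumbosacral spine, was at 18.2, 15.4 and 40.4 CPM against 0.192, 0 and 0.219 CPM. Its log2 fold change of −7.49 ± 1.09 passed the test (adjusted p = 0.0388, edgeR). *Hoxc12* was low in *Nf1*/*p53* dKO lines, at 0.979, 0.424 and 0.830 CPM, and had no count in the *Nf1*/*Cdkn2a* dKO (at least 5.35-fold lower, adjusted p = 0.0420, edgeR).

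*Hotair*, a noncoding transcript read from the other strand between *Hoxc11* and *Hoxc12* and described as able to recruit chromatin modifiers, was at 0.696, 0.735 and 3.68 CPM against 0, 0 and 0.109 CPM. The genotypes did not overlap, but the difference missed the test (log2 fold change −5.49 ± 1.49, adjusted p = 0.101, edgeR). *Hoxc13*, known for its role in hair, was at 1.57, 7.93 and 1.56 CPM against 0.0160, 0 and 0.156 CPM (log2 fold change −5.97 ± 1.43, adjusted p = 0.0818, edgeR). Its highest level was in *Nf1*/*p53* dKO line 2, the line that was lowest for *Hoxa9* to *Hoxa11*, so the posterior ends of the clusters did not rank the *Nf1*/*p53* dKO lines alike.

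*Hoxc10*, which acts in the lumbar spine and hindlimb motor neurons, did not divide the lines by genotype. It was at 22.9, 25.1 and 46.1 CPM in *Nf1*/*p53* dKO lines and at 26.9, 0.159 and 0.719 CPM in *Nf1*/*Cdkn2a* dKO lines. *Nf1*/*Cdkn2a* dKO line 1 stood at 25.4 to 27.9 CPM in its 3 cultures, inside the range of the *Nf1*/*p53* dKO, and the highest of the 6 cultures of lines 2 and 3 was 1.02 CPM. The genotype test gave a log2 fold change of −1.76 ± 1.56 (adjusted p = 0.544, edgeR), which became −6.15 without *Nf1*/*Cdkn2a* dKO line 1 (adjusted p = 0.112), and the *Nf1*/*Cdkn2a* dKO lines differed from each other (adjusted p = 2.89e-13, edgeR). In *Nf1*/*Cdkn2a* dKO line 1 the cluster therefore ran 1 gene further than in lines 2 and 3, with *Hoxc10* at 148 times *Hoxc11* per kb of exon, where the ratio was 1.33, 1.73 and 1.21 in *Nf1*/*p53* dKO lines. In *Nf1*/*Cdkn2a* dKO lines 2 and 3 the step came 1 gene earlier, with *Hoxc9* at 58.3 and 15.2 times *Hoxc10* per kb, against 0.427 in *Nf1*/*Cdkn2a* dKO line 1 and 0.519 to 0.708 in *Nf1*/*p53* dKO lines. *Hoxc10* and *Hoxc5* share 166 bp of exon on the same strand in the annotation, 8.70% and 5.37% of their bases, so some reads could be counted for either.

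From *Hoxc9* to *Hoxc4* all 6 lines read the cluster at 3.47 CPM or more. *Hoxc9*, a factor of thoracic motor neurons, was at 20.6, 19.4 and 30.4 CPM in the *Nf1*/*p53* dKO and at 14.6, 11.8 and 13.9 CPM in the *Nf1*/*Cdkn2a* dKO, lower in all 3 lines without passing the test (log2 fold change −0.81 ± 0.24, adjusted p = 0.117, edgeR). *Hoxc8*, a thoracic patterning gene, went the other way, at 5.15, 4.69 and 3.47 CPM against 10.8, 16.6 and 11.2 CPM. Its log2 fold change of 1.53 ± 0.29 came close to the threshold (adjusted p = 0.0543, edgeR). *Hoxc5* was at 6.78, 6.46 and 3.58 CPM against 15.4, 13.1 and 11.4 CPM (log2 fold change 1.25 ± 0.31, adjusted p = 0.0905, edgeR). *Hoxc6*, at 23.3, 18.1 and 15.5 CPM against 23.6, 22.1 and 28.9 CPM, was at a log2 fold change of 0.39 ± 0.22 (adjusted p = 0.336, edgeR). *Hoxc4*, at 16.3, 5.58 and 9.60 CPM against 15.6, 11.7 and 11.2, had one of 0.29 ± 0.41 (adjusted p = 0.707, edgeR). Along cluster c the fitted fold changes from *Hoxc4* to *Hoxc8* were thus above 0 and those from *Hoxc9* on below 0, with the exception of *Hoxc4* at −0.0004 without *Nf1*/*p53* dKO line 2.

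**Figure D3:**
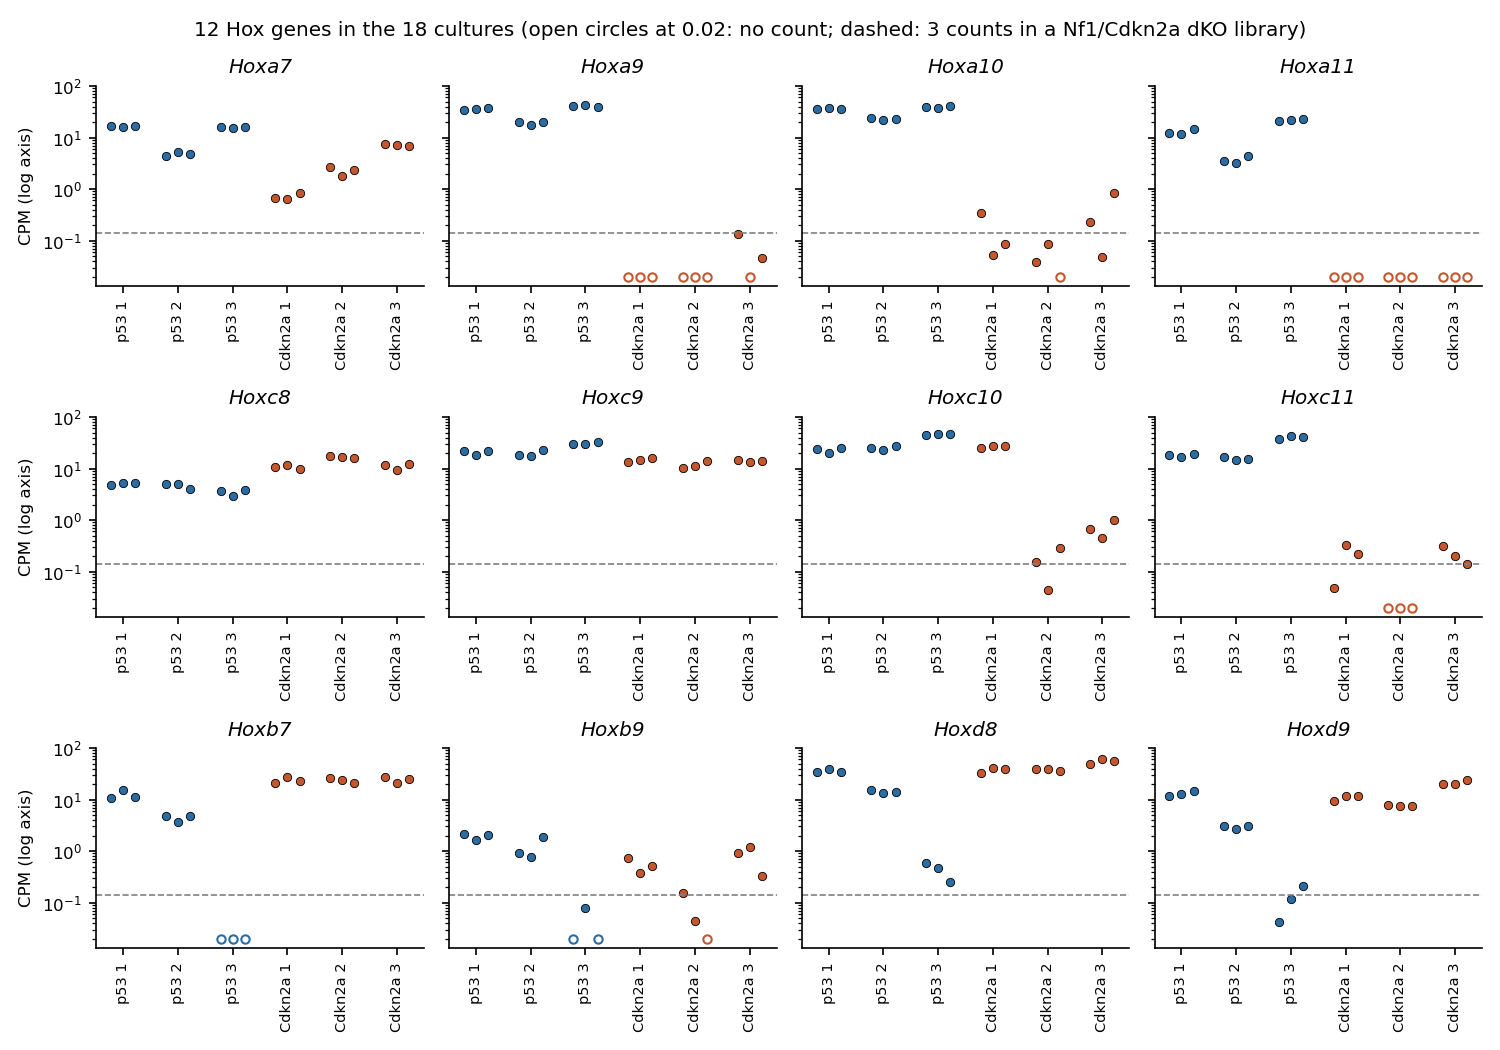
CPM on a log axis of 12 Hox genes in each of the 18 cultures, 3 per line, blue for the *Nf1*/*p53* dKO and orange for the *Nf1*/*Cdkn2a* dKO. Open circles mark cultures with no count and the dashed line 3 counts in a *Nf1*/*Cdkn2a* dKO library. *Hoxa9*, *Hoxa10*, *Hoxa11*, *Hoxc11* and, by a smaller step, *Hoxc9* are lower in every *Nf1*/*Cdkn2a* dKO culture than in every *Nf1*/*p53* dKO culture. *Hoxc8* and *Hoxb7* are higher in every one. *Hoxc10* sets *Nf1*/*Cdkn2a* dKO line 1 with the *Nf1*/*p53* dKO lines, and *Hoxb7* and *Hoxb9* lie at or under the floor in *Nf1*/*p53* dKO line 3.

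Clusters b and d were read in all 3 *Nf1*/*Cdkn2a* dKO lines and in *Nf1*/*p53* dKO lines 1 and 2, but hardly in *Nf1*/*p53* dKO line 3. The 12 members of cluster b, with coding genes on chromosome 11 from 96194316 to 96368256, summed to 49.5, 14.2 and 0.138 CPM in *Nf1*/*p53* dKO lines and to 73.1, 69.1 and 74.3 CPM in *Nf1*/*Cdkn2a* dKO lines. The 10 members of cluster d, on chromosome 2 from 74668310 to 74765142, summed to 53.8, 18.4 and 0.650 CPM against 52.1, 49.9 and 83.6 CPM. No member of either cluster was called between the genotypes by edgeR, with 0 at an unadjusted p under 0.05 in each cluster and 0 by DESeq2 on the 6 sums, while limma-voom, with line fitted as a random effect, called 5 of cluster b and 2 of cluster d higher in the *Nf1*/*Cdkn2a* dKO, where it called 16.6% of all genes (8.73% higher, 7.84% lower). In *Nf1*/*p53* dKO line 3, 20 of the 46 members had no more than 3 counts per culture, 11 of them in cluster b and 8 in cluster d. In *Nf1*/*p53* dKO lines 1 and 2, 5 and 11 members were that low, and in *Nf1*/*Cdkn2a* dKO lines 14, 16 and 11. In all 18 libraries 5 members were, 1 of them in cluster b and 3 in cluster d. *Hoxd1*, *Hoxd3* and *Hoxd10* were that low in *Nf1*/*p53* dKO line 2 as well as in line 3.

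**Figure D4:**
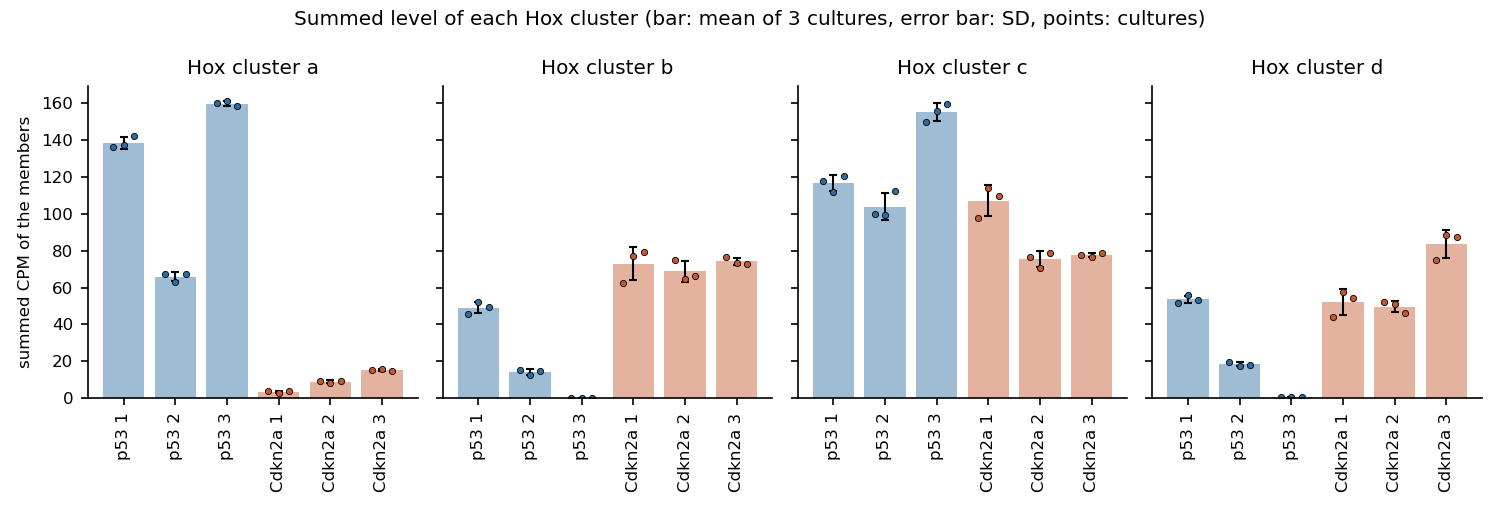
Summed CPM of the members of each Hox cluster in the 6 lines, with bars for the mean of 3 cultures, error bars for the SD and points for the cultures (*Nf1*/*p53* dKO blue, *Nf1*/*Cdkn2a* dKO orange). Cluster a is at 65.9 to 159.9 CPM in *Nf1*/*p53* dKO lines and at 3.54 to 15.3 in *Nf1*/*Cdkn2a* dKO lines, and clusters b and d are near 0 in *Nf1*/*p53* dKO line 3 alone.

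*Hoxb7*, a gene of the trunk, had no count in any culture of *Nf1*/*p53* dKO line 3, was at 12.6 and 4.37 CPM in *Nf1*/*p53* dKO lines 1 and 2 and at 23.5, 23.6 and 24.6 CPM in *Nf1*/*Cdkn2a* dKO lines. Against the floor, the mean of *Nf1*/*p53* dKO lines 1 and 2 was at least 68.1-fold above line 3, and the 3 lines differed beyond their cultures (adjusted p = 5.62e-16, edgeR). The *Nf1*/*Cdkn2a* dKO lines did not pass that test (adjusted p = 0.946, edgeR). The genotype comparison gave a log2 fold change of 2.08 ± 1.48 (adjusted p = 0.449, edgeR) although the genotypes did not overlap. *Hoxb4*, a factor of blood stem cells and of the neck vertebrae, was at 11.7, 3.01 and 0 CPM against 13.8, 16.9 and 13.7 CPM, which also did not overlap (adjusted p = 0.569, edgeR). *Hoxb6* was at 9.93, 3.50 and 0 CPM against 18.2, 14.5 and 15.8 CPM (adjusted p = 0.498, edgeR). The mean of *Nf1*/*p53* dKO lines 1 and 2 was at least 59.0-fold above line 3 for *Hoxb4* and at least 53.9-fold for *Hoxb6*.

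*Hoxb8*, a gene of the spinal cord and of myeloid progenitors, was at 7.49, 0.933 and 0 CPM in *Nf1*/*p53* dKO lines and at 10.1, 7.35 and 12.4 CPM in *Nf1*/*Cdkn2a* dKO lines, so the genotypes overlapped (adjusted p = 0.524, edgeR). *Nf1*/*p53* dKO lines 1 and 2 averaged at least 33.8-fold above line 3. Its window is shown because it held more motif matches than any other Hox window, with 2 of TATAAA, 3 of TTTATNG, 2 of which overlap those, and 1 of TGATNNAT.

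*Hoxb8*, chr11:96281655-96281954, plus strand: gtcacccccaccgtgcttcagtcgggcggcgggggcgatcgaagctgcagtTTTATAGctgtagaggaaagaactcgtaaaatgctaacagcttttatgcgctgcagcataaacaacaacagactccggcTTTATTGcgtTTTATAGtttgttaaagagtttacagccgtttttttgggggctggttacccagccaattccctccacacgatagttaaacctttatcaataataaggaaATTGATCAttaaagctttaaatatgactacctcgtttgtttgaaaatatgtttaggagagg

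The other genes of cluster b were low. *Hoxb5* was at 0.966, 0.141 and 0 CPM against 2.77, 2.09 and 1.92 CPM, with its antisense *Hoxb5os* at 0.206, 0.155 and 0 CPM against 0.273, 0.476 and 0.688 CPM, and neither overlapped (adjusted p = 0.302 and 0.315, edgeR). *Hoxb3*, a hindbrain gene, was at 2.81, 0.481 and 0 CPM against 2.10, 2.02 and 3.00 CPM, and *Hoxb2* at 1.34, 0.254 and 0.0138 CPM against 1.12, 1.60 and 0.922 CPM, so both overlapped. *Hoxb3os* was at 0.258, 0.0989 and 0 CPM against 0.689, 0.461 and 0.516 CPM without overlap (adjusted p = 0.274, edgeR), but it shares 2250 bp of exon with *Hoxb3* and 953 bp with *Hoxb2* on the opposite strand, which makes its count uncertain. *Hoxb9*, the first posterior gene of the cluster, was at 1.95, 1.19 and 0.0277 CPM against 0.545, 0.0721 and 0.797 CPM and is the one tested member of cluster b with a fold change below 0 (log2 fold change −1.16 ± 1.31, adjusted p = 0.633, edgeR). Per kb of exon, *Hoxb7* was at 10.8 and 6.13 times *Hoxb9* in *Nf1*/*p53* dKO lines 1 and 2 and at 71.7, 545 and 51.4 times in *Nf1*/*Cdkn2a* dKO lines. *Hoxb1* reached no more than 0.219 CPM in any line and *Hoxb13* had no count at all. Between the *Nf1*/*p53* dKO lines all 8 members of cluster b that were tested were called, where 79.7% of all genes were, and between the *Nf1*/*Cdkn2a* dKO lines 2 of 10 were, *Hoxb8* and *Hoxb9*, where 54.2% of all genes were.

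In cluster d the reads lay at *Hoxd8* and *Hoxd9*. *Hoxd8*, a trunk gene, was at 36.2, 14.4 and 0.443 CPM in *Nf1*/*p53* dKO lines and at 37.0, 38.1 and 55.5 CPM in *Nf1*/*Cdkn2a* dKO lines, a separation of under 1 CPM between *Nf1*/*p53* dKO line 1 and *Nf1*/*Cdkn2a* dKO line 1 (log2 fold change 1.36 ± 1.15, adjusted p = 0.525, edgeR). *Hoxd9*, which acts in the proximal forelimb and the lumbosacral spine, was at 13.1, 2.94 and 0.125 CPM against 10.9, 7.61 and 21.4 CPM and overlapped (adjusted p = 0.580, edgeR). *Nf1*/*p53* dKO line 3 still held 6 to 14 counts of *Hoxd8* per culture. *Hoxd10* was low in every line, at 0.683, 0.0424 and 0 CPM against 0.529, 0.130 and 0.985 CPM. *Hoxd3os1* was at 2.25, 0.848 and 0.0415 CPM against 2.33, 2.70 and 2.44 CPM without overlap (adjusted p = 0.530, edgeR). *Hoxd4*, at 1.00, 0.184 and 0.0138 CPM against 0.930, 0.980 and 2.52 CPM, and *Hoxd3*, at 0.438, 0.0141 and 0 CPM against 0.289, 0.317 and 0.516 CPM, share exon bases with each other and with *Hoxd3os1*. A separate entry on the same strand, HOXD3, shares 53.1% of the exon bases of *Hoxd3* and 39.2% of those of *Hoxd4*, and was itself at 0.335, 0.0848 and 0.111 CPM against 0.433, 0.476 and 0.688 CPM. Reads could be split between these entries, so their counts are uncertain. *Hoxd1* stayed at or below 0.112 CPM, *Hoxd11*, *Hoxd12* and *Hoxd13* at or below 2 counts in a line. All 5 members of cluster d tested between the *Nf1*/*p53* dKO lines were called (79.7% of all genes), and 4 of 6 between the *Nf1*/*Cdkn2a* dKO lines (54.2% of all genes), *Hoxd4*, *Hoxd8*, *Hoxd9* and *Hoxd10*, with line 3 highest in each.

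Summed by paralog group, and per kb of exon so that genes of different length can be added, the 2 genotypes overlapped for groups 1 to 6 and 9. Groups 7 and 8 were higher and groups 10 to 13 lower in every *Nf1*/*Cdkn2a* dKO line. The 3 genes of group 11 together were at 14.6, 9.23 and 29.5 CPM per kb in *Nf1*/*p53* dKO lines and at 0.0952, 0 and 0.108 in *Nf1*/*Cdkn2a* dKO lines. Group 12 was at 0.950, 0.411 and 0.805 against 0 and group 13 at 0.701, 3.23 and 1.74 against 0.00652, 0 and 0.0635 CPM per kb. Group 10 was at 23.5, 20.2 and 36.2 against 14.4, 0.168 and 1.03 CPM per kb, the first *Nf1*/*Cdkn2a* dKO value being almost all *Hoxc10*. Group 9, at 13.3 to 21.8 against 8.43 to 16.1 CPM per kb, was carried in *Nf1*/*Cdkn2a* dKO lines by *Hoxc9* (4.84 to 6.03) and *Hoxd9* (3.56 to 10.04). Group 7 was at 13.9, 4.49 and 5.49 against 15.4, 16.1 and 18.4, and group 8 at 17.8, 7.25 and 1.39 against 21.1, 22.6 and 28.9 CPM per kb. No test was run on these sums.

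The coding gene with the highest level per kb of its cluster differed between the genotypes in cluster a. It was *Hoxa10* in *Nf1*/*p53* dKO lines (7.05 to 12.02 CPM per kb), and *Hoxa7* in *Nf1*/*Cdkn2a* dKO lines 1 and 3 (0.251 and 2.47). The noncoding *Hotairm1*, left out of this ranking, was at 1.33, 3.24 and 1.98 CPM per kb in *Nf1*/*Cdkn2a* dKO lines, above *Hoxa7* in line 1. *Hoxb7* led cluster b in every line but *Nf1*/*p53* dKO line 3, at 8.16 and 2.83 in the *Nf1*/*p53* dKO and 15.2, 15.3 and 15.9 CPM per kb in the *Nf1*/*Cdkn2a* dKO. *Hoxc10* led cluster c in *Nf1*/*p53* dKO lines and *Nf1*/*Cdkn2a* dKO line 1 (up to 24.2 CPM per kb) and *Hoxc6* in *Nf1*/*Cdkn2a* dKO lines 2 and 3 (9.18 and 12.01). *Hoxd8* led cluster d in all 6 lines, at 13.2, 5.24 and 0.161 against 13.48, 13.9 and 20.3 CPM per kb.

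Genes that work with Hox proteins or set their expression were followed by lists. Of the 9 cofactors of the Pbx, Meis and Pknox families, which bind DNA together with Hox proteins, 1 was called higher and 0 lower by edgeR, where 1.8% of all genes were called. At an unadjusted p under 0.05 there were 1 higher and 2 lower, where 22.4% of all genes passed, and DESeq2 on the 6 sums called 1 higher and 2 lower, where it called 14.3% of all genes. The list had a median log2 fold change of −0.40 where that of all genes tested was −0.02. The called gene was *Meis2*, at 28.8, 23.5 and 24.5 CPM in *Nf1*/*p53* dKO lines against 54.5, 50.1 and 57.5 CPM in *Nf1*/*Cdkn2a* dKO lines (log2 fold change 1.08 ± 0.15, adjusted p = 0.0361, edgeR). Leaving out any 1 line other than *Nf1*/*p53* dKO line 1 ended that call. *Pknox2* had the lowest fold change of the list, at 2.00, 7.04 and 12.7 CPM against 0.593, 0.0433 and 0.250 CPM (log2 fold change −4.62 ± 1.08, adjusted p = 0.0800, edgeR), and *Meis1* was at 6.16, 10.8 and 8.80 CPM against 2.89, 3.85 and 3.77 CPM (adjusted p = 0.0830, edgeR).

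Of 20 upstream regulators, which include the retinoic acid receptors, the Cdx factors and the Polycomb and trithorax proteins that keep Hox genes off or on, 15 were tested and 0 were called by edgeR (4 at an unadjusted p under 0.05, against 22.4% of all genes, and 3 called by DESeq2, against 14.3%), with a median log2 fold change of 0.01. *Cyp26b1*, which breaks down retinoic acid, had the highest, at 0.940, 1.43 and 0.360 CPM against 11.7, 1.76 and 19.1 CPM (log2 fold change 3.58 ± 0.94, adjusted p = 0.0971, edgeR). The retinoic acid receptor *Rarb* had the lowest, at 4.79, 3.96 and 1.44 CPM against 0.673, 1.24 and 0.610 CPM (log2 fold change −2.01 ± 0.57, adjusted p = 0.110, edgeR). *Cdx1*, *Cdx2* and *Cdx4*, activators of Hox genes in the embryo, had at most 4 counts in any library.

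Of 14 genes of the table that flank the clusters, 10 were tested and 0 were called by edgeR (2 at an unadjusted p under 0.05, against 22.4% of all genes, and 1 called by DESeq2, against 14.3%), with a median log2 fold change of −0.13. *Skap2*, past the anterior end of cluster a, had the lowest, at 30.2, 31.9 and 27.3 CPM against 16.3, 16.1 and 22.6 CPM (log2 fold change −0.70 ± 0.20, adjusted p = 0.109, edgeR), and *Mtx2*, beside cluster d, the highest, at 77.6, 66.6 and 65.8 CPM against 83.4, 100.9 and 69.9 CPM (log2 fold change 0.27 ± 0.17, adjusted p = 0.393, edgeR). *Evx1* and *Evx2*, the homeobox genes next to *Hoxa13* and *Hoxd13*, had 0 counts in all libraries.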

How the data were processed

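RNA from 3 cultures of each of 6 MPNST lines was sequenced, 18 libraries in all. The authors deposited a table of raw counts, not normalized, with 1 row a gene and 1 column a library. The submitters' processing notes name STAR 2.5, CASAVA, DESeq2 1.14.1 and GRCm38/mm10, and the counting tool and its use of strand are not given in the sources used here. Libraries held 19560535 to 28312207 counts and the sum over the 3 cultures of a line 65206479 to 73065228. A count of 0 allows up to 3 counts, counting error only, and no row of the table lacked a gene.

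Genotype, line and culture came from the sample titles. The labels do not say whether the cultures of a line were grown apart in time, so p-values between lines measure the spread between those cultures, which may be technical. Cultures of a line differed from each other by more than sampling noise (the lowest chi-square per degree of freedom was 3.57), so all were kept. Counts were summed per line, filtered with filterByExpr (minimum count 10, minimum total 15), scaled with TMM and tested with edgeR 4.0.16's quasi-likelihood test as in its earlier versions, with Benjamini-Hochberg adjustment over all genes (R 4.3.3, limma 3.58.1, DESeq2 1.42.0, Python 3.11.15). Lines within a genotype were compared over its 9 cultures. Exon lengths and positions are from GENCODE M21 (GRCm38), which holds 34490 of the 35275 identifiers, and promoter windows from RefSeq (GRCm38.p6). The steps were tested on simulated counts. Alternatives are given at the end, of which edgeR's bias-adjusted dispersions were chosen after seeing the data.

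Named genes are every Hox member but 1, which is not reported here and is included in counts and sums only, and of each other list the highest and lowest fold change, any gene that passed, and those named below or above for their values, which were chosen after those were seen (*Meis1*, the *Cdx* and *Evx* genes and the markers) or, for HOXD3, its overlap. The members and lists were chosen with earlier results of these data known.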

Additional observations from a re-analysis of the deposited data

Results flagged for a closer look

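Of 73 sets of 9 cultures of 1 genotype, 7 held a culture far from the other 8 on Dixon's scale. Chance flags about 1 set in 20 where the 9 values are independent draws of 1 normal distribution, which cultures of 3 differing lines with many counts of 0 are not, so 7 of 73 was not compared with that rate. In 5 of the 7 the far culture belonged to *Nf1*/*Cdkn2a* dKO line 3. The highest of the 9 *Nf1*/*Cdkn2a* dKO cultures was line 3 culture 1 for *Hoxa3* (0.911 CPM, next 0.441), for *Hoxa9* (0.137 CPM, next 0.0463) and for *Hoxc13* (0.410 CPM, next 0.0463). It was line 3 culture 3 for *Hoxa10* (0.833 CPM, next 0.341) and for *Hotair* (0.324 CPM, next 0). These 5 values rest on 20, 3, 9, 18 and 7 counts. *Hoxb2* was highest in *Nf1*/*Cdkn2a* dKO line 2 culture 1 at 2.30 CPM (59 counts, next 1.34), and *Hoxb5os* in *Nf1*/*p53* dKO line 1 culture 2 at 0.399 CPM (12 counts, next 0.168).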

How the results depend on the processing

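The number of Hox members called between genotypes, 8 of 38, was also 8 with DESeq2's size factors, upper-quartile factors or no filter (1.85%, 2.1% and 1.72% of all genes called). It was 11 with edgeR's bias-adjusted dispersions (3.68% of all genes). It was 15 with DESeq2 on the 6 sums, 20 with limma-voom and the line as a random effect, and 19 and 18 with edgeR and DESeq2 on the 18 cultures as separate samples, which treat cultures of a tumor as replicates and call 46.5% and 48.9% of all genes. With at least 10 counts in every line, which keeps 12 members, the number was 1 (1.73% of all genes). Leaving out 1 line gave 0 to 2, where 0 to 1.11% of all genes were called. The numbers do not pair the samples (correlation of deviations −0.130 to −0.083 for line numbers, −0.096 to 0.148 for culture numbers). The line number as replicate block gave 0 members (17 at an unadjusted p under 0.05) and 0 genes in all. The culture number as replicate block on the 18 cultures gave 21 members, where 43% of all genes were called. Between the *Nf1*/*p53* dKO lines 34 of 36 members tested were called, where 79.7% of all genes were. The alternatives gave 32 to 37, where 51.9 to 80.8% of all genes were called. Between the *Nf1*/*Cdkn2a* dKO lines 16 of 27 were called, near the share of all genes (54.2%). With 1 culture number left out it was 9 to 14, where 38.8 to 47.5% of all genes were called. The other causes were not tested.

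The direction turned for *Hoxc4*, which was not called, without *Nf1*/*p53* dKO line 2 (log2 fold change −0.0004, and up to 0.76 with another line left out). No other member reported here turned under any alternative that could be run for it. *Hoxa4* was not called by limma-voom. CPM of raw library totals, in place of TMM, moved cluster a to 147, 169.7 and 14.4 CPM in *Nf1*/*p53* dKO lines 1 and 3 and *Nf1*/*Cdkn2a* dKO line 3, cluster b to 69.9 in the last, cluster c to 124, 165 and 73.2 in the same 3 lines, and cluster d to 57.1 in *Nf1*/*p53* dKO line 1. At 10 CPM, 14, 7 and 9 members were detected in *Nf1*/*p53* dKO lines 1 to 3 and 9 and 11 in *Nf1*/*Cdkn2a* dKO lines 2 and 3. At 0.1 CPM, 31, 29 and 35 were in *Nf1*/*Cdkn2a* dKO lines 1 to 3. Depth limits what can be said below 0.139 CPM.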

Other observations

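The count table holds 16 other annotated transcripts within the bounds of the clusters, and the 3 described here were chosen after their values were seen. *Hoxaas3*, on the opposite strand to *Hoxa3* through *Hoxa7*, was at 0.876, 0.438 and 0.678 CPM in *Nf1*/*p53* dKO lines and at 0.128, 0.0144 and 0.156 CPM in *Nf1*/*Cdkn2a* dKO lines (log2 fold change −2.72, adjusted p = 0.112, edgeR). *Hoxaas2*, beside *Hoxa3*, was at 0.541, 0.254 and 0.429 CPM against 0.0321, 0.173 and 0.188 CPM (adjusted p = 0.230, edgeR). *Haglr*, a noncoding transcript beside *Hoxd1*, was at 1.13, 0.127 and 0 CPM against 0.722, 0.735 and 0.860 CPM (adjusted p = 0.736, edgeR). The line at 0, *Nf1*/*p53* dKO line 3, had no more than 3 counts per culture for 8 of the 10 members of cluster d. HOXD3, given above, was not lowest in that line, at 0.111 CPM against 0.0848 in *Nf1*/*p53* dKO line 2.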
